A study of Mus musculus with 24 samples.

Results

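The genes followed here belong to the Akt, mTOR and FoxO branch of insulin and growth factor signaling: the kinases Akt1, Akt2 and Mtor, the transcription factors Foxo1 and Foxo3, and Irs2, Txnip and Ccng2, which FoxO factors are known to drive. They were taken by symbol, with earlier results of these data known, and make up 8 of the 23879 gene symbols listed. Each symbol was listed in all 24 libraries, with a value above 0 in all of them except for Irs2, above 0 in 22. The libraries are polyA RNA from endothelial cells (BMEC) and stromal cells (BMS) of the bone marrow of C57BL/6J mice, with 3 libraries in each of 8 groups. Both cell types were taken directly from the animal (in vivo), from a first culture, and from a co-culture series in which they were kept without ("CC-Alone") or together with hematopoietic stem and progenitor cells ("CC+HSPC"). The 18 titles of the 6 cultured groups, alone and with HSPC included, carry the name Akt1 and the 6 titles of the in vivo groups do not. The labels do not say what was done with Akt1, give no age (the column headers of the in vivo endothelial values carry the word Young) and do not say whether HSPC were removed before lysis. They also do not say whether the libraries of a group come from separate animals or cultures. In the first culture, Xist and Y-linked genes differ between libraries of a group, so that the spread there is not technical alone. In the other groups it may be technical. In vivo and culture therefore differ in the Akt1 label as well as in the setting, which cannot be told apart.

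In this pathway, insulin and growth factor receptors act through adaptor proteins such as Irs2 on PI3 kinase, whose lipid product brings Akt to the membrane and activates it. Active Akt relieves the brake that the Tsc proteins place on mTOR complex 1, which drives protein synthesis and growth, and phosphorylates FoxO factors so that they leave the nucleus. FoxO factors in the nucleus switch on genes of quiescence, stress resistance and nutrient handling, and in endothelium Foxo1 is known for restraining growth and metabolism. The files measure transcripts, not phosphorylation or protein, so they carry no reading of the activity of these kinases or factors.

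Values are FPKM (fragments per kilobase of transcript, scaled to the mapped fragments of the library), so levels can be set beside each other between genes. Tests ran on log2(FPKM + 1) over all genes with limma, a difference is given on that scale with its standard error (SE), and a gene is said to have been called at a Benjamini-Hochberg adjusted p under 0.05. The depth of the libraries is unknown. Summed FPKM per library ran from 1421447 to 1808592, and 12447 to 13961 genes reached an FPKM of 1. Libraries of the first culture series varied more than the others: across genes, Pearson's r between libraries of a group was 0.962 to 0.972 for cultured endothelium and 0.954 to 0.993 for cultured stroma, and at least 0.9947 in the other 6 groups. Among these cultured libraries, 3 carried Xist at 1006 to 1250 FPKM with the Y-linked genes at 0 (endothelium replicates 2 and 3, stroma replicate 3). The other 21 libraries had Xist at 2.35 FPKM or less and the Y-linked genes at 30.7 to 287.7 FPKM. This is the pattern of female and male cells, so both first culture groups mixed the sexes and the other groups, in vivo included, did not. Sex thus differs in part between the first culture and the groups set against it. The endothelial marker list summed to 10923 to 21619 FPKM in endothelium and 24.8 to 400.3 FPKM in stroma. The stromal list summed to 4500 to 11609 FPKM in cultured stroma, 60059 to 69641 FPKM in stroma alone and with HSPC, and 141513 to 167562 FPKM in stroma in vivo, while Lum, a stromal marker, was listed at 0 in all 3 libraries of cultured stroma.

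**Figure D1:**
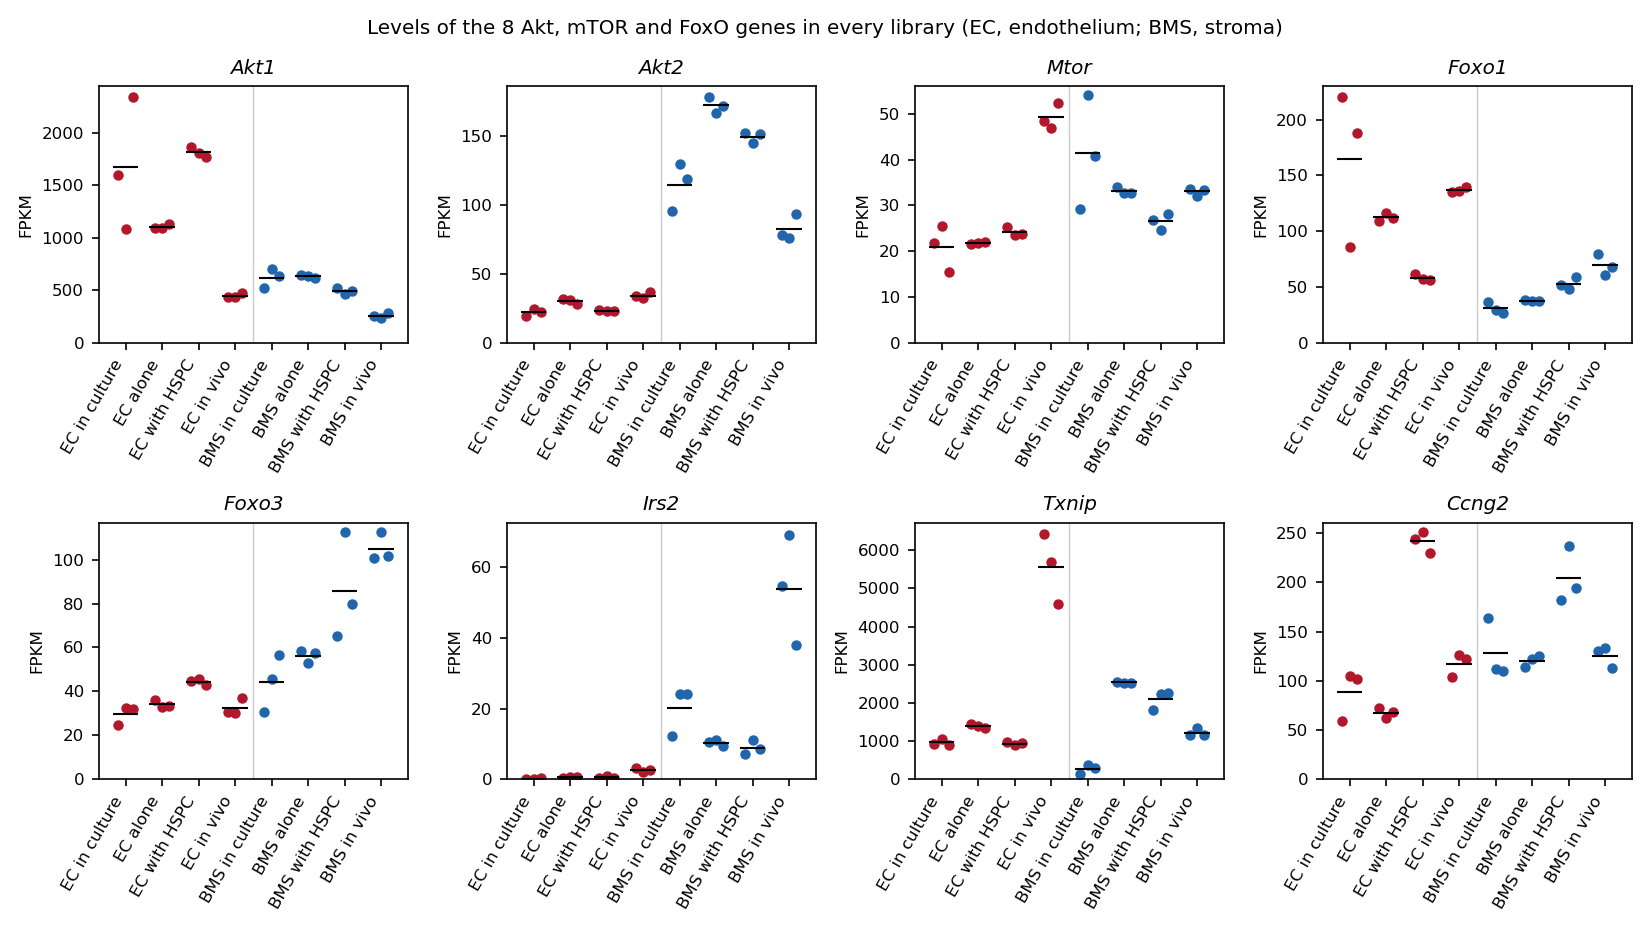
FPKM of the 8 genes in every library (points, linear axes from 0) with the group mean (line), for endothelium (EC, red) and stroma (BMS, blue). Akt1 and Foxo1 stand higher in most endothelial groups, Akt2 and Irs2 stand higher in every stromal group, and Txnip is at 4589 to 6410 FPKM in endothelium in vivo.

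Akt1 was among the most abundant transcripts: its mean over the 24 libraries, 880 FPKM, was above that of 98.4% of 14267 genes. Cultured endothelium held 1599, 1080 and 2337 FPKM, the widest spread of any group. Endothelium alone held 1094, 1091 and 1128 FPKM and endothelium with HSPC 1866, 1810 and 1765 FPKM, so that these groups did not overlap. Endothelium in vivo, without Akt1 in its titles, held 433, 433 and 470 FPKM, below every cultured endothelial library. In stroma the values were 522, 698 and 637 FPKM in culture, 649, 638 and 615 FPKM alone, and 520, 462 and 497 FPKM with HSPC. Stroma in vivo held 254, 234 and 284 FPKM, the lowest of all groups. In the order of group means, neighbours that overlapped were endothelium with HSPC and in culture, endothelium in culture and alone, stroma alone and in culture, and stroma with HSPC and endothelium in vivo.

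Akt2, the family member best known for glucose handling, ran the other way between the cell types. It lay between 19.2 and 36.7 FPKM in the 12 endothelial libraries and between 75.7 and 178.3 FPKM in the 12 stromal libraries, with no overlap. Within stroma it was highest alone, at 178, 166 and 172 FPKM, then with HSPC at 152, 145 and 151 FPKM, in culture at 95.8, 130 and 119 FPKM and in vivo at 78.3, 75.7 and 93.1 FPKM. None of these 4 stromal groups overlapped its neighbour.

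Mtor, the kinase of both mTOR complexes, had the smallest ratio between its highest and lowest group mean of the 8 genes. It lay between 15.4 and 25.4 FPKM in endothelium in culture, alone and with HSPC, and at 48.5, 46.8 and 52.3 FPKM in endothelium in vivo, which overlapped none of those libraries. In stroma it was at 29.3, 54.1 and 40.9 FPKM in culture, 34.1, 32.7 and 32.8 FPKM alone, 26.9, 24.7 and 28.1 FPKM with HSPC, and 33.7, 32.1 and 33.4 FPKM in vivo. The cultured stromal libraries enclosed the alone and in vivo values.

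Foxo1 stood at 220, 85.9 and 188 FPKM in cultured endothelium, 109.5, 116 and 112 FPKM alone, 61.3, 57.0 and 56.6 FPKM with HSPC, and 135, 136 and 139 FPKM in vivo. Replicate 2 of cultured endothelium lay below every library of endothelium alone and in vivo. Stroma held less: 36.2, 29.5 and 27.0 FPKM in culture, 38.7, 37.4 and 37.7 FPKM alone, 52.2, 48.3 and 58.6 FPKM with HSPC, and 79.7, 60.5 and 68.2 FPKM in vivo. Endothelium with HSPC and stroma with HSPC overlapped, the only pair of groups of the same setting that did so for Foxo1. Foxo3 was at 24.9 to 45.6 FPKM in all endothelial libraries. In stroma it was at 30.5, 45.8 and 56.6 FPKM in culture, 58.3, 52.8 and 57.5 FPKM alone, 65.3, 112.5 and 79.9 FPKM with HSPC, and 100.5, 112.4 and 101.6 FPKM in vivo. Foxo1 therefore made up 40.3% to 78.4% of the summed FoxO transcripts in endothelium and 22.9% to 34.7% in stroma, with its lowest endothelial share, 40.3% to 41.5%, in the libraries with HSPC. Foxo4 lay between 26.3 and 37.8 FPKM in the cultured, alone and HSPC groups of both cell types, and between 53.6 and 73.1 FPKM in vivo.

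**Figure D2:**
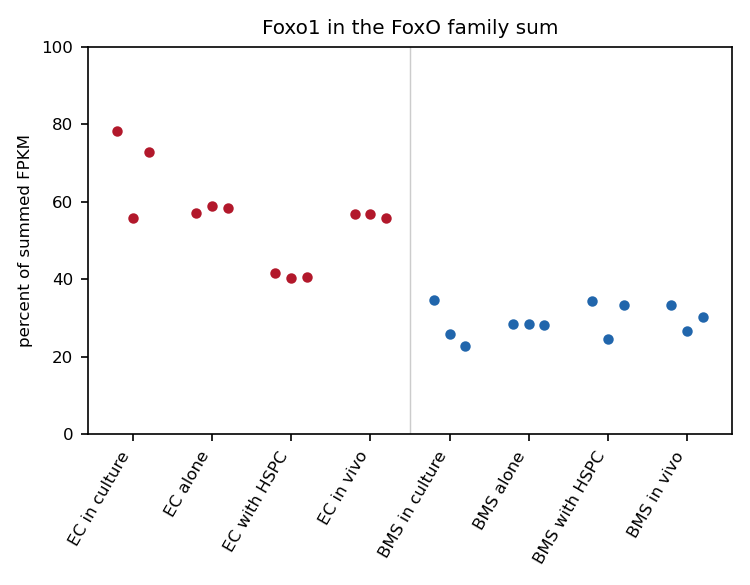
Share of Foxo1 in the summed FPKM of Foxo1, Foxo3, Foxo4 and Foxo6, in percent, 1 point per library, endothelium (EC) red and stroma (BMS) blue. The Foxo1 share is 40.3% to 78.4% in endothelium, lowest with HSPC, and 22.9% to 34.7% in stroma.

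The promoters of the 3 FoxO target genes are shown because these genes are set beside Foxo1 and Foxo3 below. Each line holds the 250 bases before the annotated start in RefSeq on GRCm38.p6, 5′ to 3′ along the gene. These are chr3:96557707-96557956 on the plus strand for Txnip, chr8:11008930-11009179 on the minus strand for Irs2 and chr5:93267323-93267572 on the plus strand for Ccng2. The authors' files use the build mm9, and no coordinate was carried between the builds. Capitals mark matches to the FoxO core GTAAACA, to the insulin response core CAAAACA and, in Txnip, to the carbohydrate response pair, 2 copies of CACGNG with 5 bases between them, each searched on both strands.
Txnip: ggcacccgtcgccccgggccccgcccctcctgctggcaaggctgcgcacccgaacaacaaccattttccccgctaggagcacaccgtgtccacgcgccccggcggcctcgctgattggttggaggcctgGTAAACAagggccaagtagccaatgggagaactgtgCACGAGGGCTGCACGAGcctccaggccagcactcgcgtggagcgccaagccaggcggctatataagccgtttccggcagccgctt
Irs2: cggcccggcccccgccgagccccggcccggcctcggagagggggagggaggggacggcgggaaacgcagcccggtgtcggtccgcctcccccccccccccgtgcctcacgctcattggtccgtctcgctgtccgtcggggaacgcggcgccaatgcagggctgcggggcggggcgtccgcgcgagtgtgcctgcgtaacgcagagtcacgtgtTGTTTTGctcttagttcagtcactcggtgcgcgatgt
Ccng2: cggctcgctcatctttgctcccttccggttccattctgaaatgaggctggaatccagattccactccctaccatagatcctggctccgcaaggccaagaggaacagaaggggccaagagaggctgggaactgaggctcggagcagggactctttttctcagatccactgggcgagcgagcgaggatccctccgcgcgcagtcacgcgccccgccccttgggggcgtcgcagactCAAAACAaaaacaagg
In Txnip the FoxO core lies 121 to 115 bases before the start and the carbohydrate pair, the kind of element through which glucose is known to drive Txnip, 85 to 69 bases before it. Irs2 holds the insulin response core on the opposite strand, 37 to 31 bases before its start, and Ccng2 holds it 16 to 10 bases before its start. Of 32851 promoter windows of this length, 3.17% hold the FoxO core, 5.56% the insulin response core and 0.046%, or 15 windows, the carbohydrate pair. Of the other members, Akt1 holds the FoxO core in 1 of its windows, 161 to 155 bases before the start, and Akt2, Mtor, Foxo1 and Foxo3 hold none of the motifs in theirs. All 8 genes had a window, 12 windows in all. These are matches of letters, and no binding was measured.

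Irs2, the adaptor that couples insulin and IGF1 receptors to PI3 kinase, was nearly a stromal transcript. It was listed at 0, 0 and 0.37 FPKM in cultured endothelium, lay between 0.41 and 0.90 FPKM in endothelium alone and with HSPC, and at 3.07, 2.03 and 2.61 FPKM in endothelium in vivo. Stroma held 12.3, 24.2 and 24.04 FPKM in culture, 10.5, 11 and 9.35 FPKM alone, 7.25, 11.1 and 8.53 FPKM with HSPC, and 54.5, 69.1 and 37.9 FPKM in vivo. Every stromal library was above every endothelial library. Irs1, its close relative, was at most 1.75 FPKM in any endothelial library and between 22.4 and 193.9 FPKM in stroma.

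Txnip, which binds thioredoxin and limits glucose uptake, was the most abundant of the 8 genes, with a mean of 1874 FPKM, above 99.5% of genes. Endothelium held 929.5, 1068 and 904 FPKM in culture, 1458, 1407 and 1339 FPKM alone, 974, 901 and 939 FPKM with HSPC, and 6409.9, 5682 and 4589 FPKM in vivo. Stroma held 138, 372 and 290.3 FPKM in culture, 2558, 2531 and 2524 FPKM alone, 1813, 2225 and 2249 FPKM with HSPC, and 1162, 1352 and 1153 FPKM in vivo. The cultured stromal libraries were thus the lowest of all, and their range did not meet that of any other group.

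Ccng2, an atypical cyclin linked to cell cycle arrest, was at 59.3, 105 and 102 FPKM in cultured endothelium, 72.7, 62.5 and 68.0 FPKM alone, 244, 251 and 229.9 FPKM with HSPC, and 104, 126 and 122 FPKM in vivo. In stroma it was at 163, 112 and 110.2 FPKM in culture, 114, 122 and 125 FPKM alone, 182, 237 and 194 FPKM with HSPC, and 130.2, 134 and 113 FPKM in vivo. The HSPC groups of both cell types lay above all other libraries.

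With HSPC, the endothelial libraries held more Akt1 and Ccng2 transcript and less Foxo1, Txnip and Akt2. Of the 8 genes 6 were called, where 48.6% of all 14017 genes tested were called. Akt1 rose by 0.71 ± 0.05 (SE, 3 against 3 libraries), which is 1.64-fold on the log2(FPKM + 1) scale (limma, adjusted p = 2.07e-07). Foxo1 fell by 0.94 ± 0.06, or 1.92-fold (limma, adjusted p = 3.08e-07), and Ccng2 rose by 1.82 ± 0.09, or 3.53-fold (limma, adjusted p = 2.60e-08). Txnip fell by 0.58 ± 0.07 and Akt2 by 0.36 ± 0.05 (limma, adjusted p = 6.13e-05 and 7.68e-05). In 7 of the 8 genes, all but Irs2, the groups did not overlap, where this held for 8578 of all 14017 genes tested. Mtor was called at 0.15 ± 0.05 higher (limma, adjusted p = 0.0400). That call was lost when any of the 6 libraries was left out, with differences of 0.12 to 0.16 and limma adjusted p of 0.0561 to 0.136, and under trimmed-mean scaling and quantile normalization. Foxo3 was not called, with a difference of 0.37 and a 95% interval of 0.05 to 0.69 (limma, adjusted p = 0.0523), although its libraries with HSPC all lay above those alone, and it was called when only these groups were fitted (limma, adjusted p = 3.15e-04). Irs2, near 0 in both groups, differed by 0.01 with an interval of -0.32 to 0.34.

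In stroma with HSPC, Foxo1, Foxo3 and Ccng2 rose and the kinases Akt1, Akt2 and Mtor fell. Foxo4, which is not among the 8 genes, fell by 0.28 (limma, adjusted p = 0.00120). Of the 8 genes 7 were called, where 61% of all genes were called. Akt1 fell by 0.36 ± 0.05, Akt2 by 0.20 ± 0.05 and Mtor by 0.31 ± 0.05 (limma, adjusted p = 3.12e-05, 0.00323 and 3.74e-04). Foxo1 rose by 0.47 ± 0.06, Foxo3 by 0.57 ± 0.14 and Ccng2 by 0.75 ± 0.09 (limma, adjusted p = 5.17e-05, 0.00511 and 1.96e-05). Txnip fell by 0.28 ± 0.07 (limma, adjusted p = 0.00595). Irs2 was not called, at -0.20 with an interval of -0.53 to 0.14. Without replicate 2 of stroma with HSPC, which held the highest Foxo3 value, the Foxo3 difference was 0.36 (limma, adjusted p = 0.00260). Fitted with all 8 groups together, which brings in the wider spread of the cultured libraries, only Foxo3 and Ccng2 were called in this comparison, and in endothelium Txnip was not called.

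The response to HSPC differed between the cell types for 5 of the 8 genes, where 57% of all genes had such a difference. The endothelial change exceeded the stromal change by 1.08 ± 0.06 for Akt1, 0.46 ± 0.08 for Mtor and 1.07 ± 0.12 for Ccng2 (limma interaction, adjusted p = 1.86e-07, 3.61e-04 and 2.89e-05). It was below the stromal change by 1.41 (-1.41 ± 0.09) for Foxo1 and by 0.30 (-0.30 ± 0.10) for Txnip (limma interaction, adjusted p = 2.81e-07 and 0.0307). Akt1 and Foxo1 thus moved in opposite directions in the cell types and against each other within each, while Ccng2 rose in both. In the fit of all 8 groups Mtor and Txnip had no called interaction. The interaction of Txnip was also lost without any of 8 of the 12 libraries, at -0.24 to -0.30 with limma adjusted p of 0.0546 to 0.0750. These were replicates 1 and 2 of endothelium alone, 2 and 3 of endothelium with HSPC, 2 and 3 of stroma alone, and 2 and 3 of stroma with HSPC. For Akt2 the interaction was not called (-0.16, limma adjusted p = 0.0604), and it was called without replicate 3 of endothelium alone (-0.21), replicate 1 of stroma alone (-0.19) or replicate 2 of stroma with HSPC (-0.18).

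Summed leukocyte and granulocyte markers were higher in the HSPC groups, while the red cell sums overlapped (6.85 to 9.12 FPKM against 7.01 to 7.10 FPKM in endothelium, 0 to 3.03 FPKM against 0 to 1.28 FPKM in stroma). All 10 leukocyte markers reached 1 FPKM in endothelium with HSPC, where their sum was 165 to 227 FPKM against 1.84 to 3.42 FPKM alone, with Ptprc, Spi1 and Vav1 at 0 alone. The 9 granulocyte markers summed to 1736 to 1959 FPKM against 49.6 to 57.4 FPKM in endothelium, and to 679.6 to 888 FPKM against 0 in stroma. The leukocyte sum of stroma was 35.4 to 51.5 FPKM with HSPC and at most 0.88 FPKM alone. The part of these cells in the differences of the 8 genes was not tested. In RNA of whole samples, fewer cells of a type and less RNA per cell cannot be told apart.

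**Figure D3:**
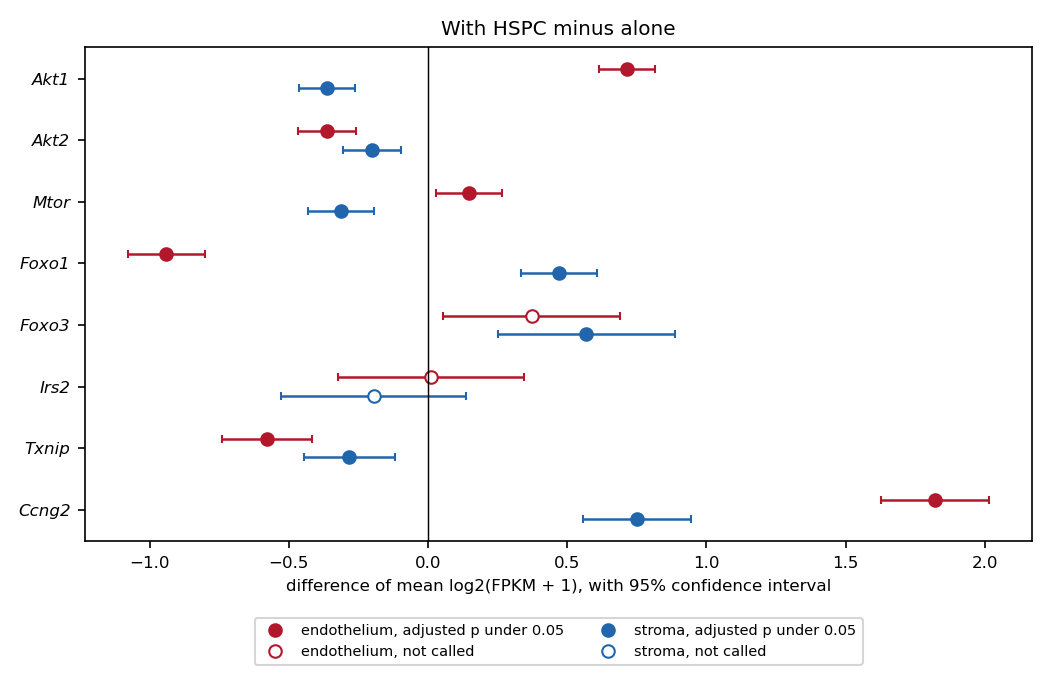
Difference with HSPC minus alone for the 8 genes on the log2(FPKM + 1) scale, endothelium red and stroma blue, with 95% confidence intervals; filled points were called. Akt1 and Foxo1 lie on opposite sides of 0 in the cell types, and Ccng2 is higher with HSPC in both, by 1.82 and 0.75.

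Between in vivo and cultured endothelium, Akt1 was lower in vivo and Txnip, Irs2, Mtor and Akt2 were higher. Of the 8 genes 5 were called, where 53.3% of all 14904 genes tested were called. Akt1 fell by 1.84 ± 0.24, or 3.57-fold (limma, adjusted p = 1.36e-04), and Txnip rose by 2.51 ± 0.31, or 5.71-fold (limma, adjusted p = 1.00e-04). Mtor rose by 1.22 ± 0.22 and Irs2 by 1.67 ± 0.31 (limma, adjusted p = 0.00112 for each), and Akt2 rose by 0.62 ± 0.14 (limma, adjusted p = 0.00471). Foxo1, Foxo3 and Ccng2 were not called, with intervals of -0.80 to 0.49, -0.32 to 0.59 and -0.06 to 0.94. Without replicate 2 of cultured endothelium, Foxo1 was called lower in vivo, at -0.57 (limma, adjusted p = 0.0132). Without the cultured libraries that carry Xist, cultured endothelium is 1 library, replicate 1, which is assumed to vary like the other groups of the fit. Set against that library, Foxo1 was called at -0.68 and Ccng2 at 0.97 (limma, adjusted p = 0.0134 and 0.00830). Ccng2 was also called under trimmed-mean scaling (0.63).

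In stroma, Akt1 was also lower in vivo and Txnip, Irs2, Foxo3 and Foxo1 were higher. Of the 8 genes 6 were called, where 55.4% of all genes were called and the median difference of all genes was -0.15. Akt1 fell by 1.26 ± 0.24 (limma, adjusted p = 0.00144). Txnip rose by 2.30 ± 0.31, or 4.94-fold, and Irs2 by 1.39 ± 0.31 (limma, adjusted p = 1.58e-04 and 0.00330). The Txnip rise held against the first culture only. Its stromal values in vivo, 1153 to 1352 FPKM, lay below those alone (2524 to 2558 FPKM) and with HSPC (1813 to 2249 FPKM). Foxo3 rose by 1.27 ± 0.21 and Foxo1 by 1.14 ± 0.29 (limma, adjusted p = 5.12e-04 and 0.00702). Akt2 was called at 0.47 ± 0.14 lower (difference -0.47, limma adjusted p = 0.0192). Trimmed-mean scaling, which moved the median of all genes by 0.20, put Akt2 at -0.22, no longer called, and so did leaving out replicate 2 or 3 of cultured stroma or replicate 1 or 2 of stroma in vivo (-0.37 to -0.44, limma adjusted p of 0.0559 to 0.0774). Quantile normalization ended the call of Akt1 (-0.97) and a pseudocount of 0.1 that of Irs2 (1.43). Mtor and Ccng2 were not called, with intervals of -0.77 to 0.22 and -0.51 to 0.49.

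These in vivo differences differed between the cell types for 4 of the 8 genes, where 33.5% of all genes did. The endothelial difference exceeded the stromal one by 1.09 ± 0.21 for Akt2 and 1.498 ± 0.32 for Mtor (limma interaction, adjusted p = 0.00236 and 0.00461). It was lower for Foxo1 at -1.30 ± 0.41 and for Foxo3 at -1.13 ± 0.29 (limma interaction, adjusted p = 0.0324 and 0.0130). With 1 library left out, the Foxo1 call held without replicate 2 of cultured endothelium, replicate 1 of cultured stroma or replicate 2 of stroma in vivo. Leaving out any of the other 9 libraries ended it, at -1.04 to -1.32 with limma adjusted p of 0.0550 to 0.0803. For Akt1 it was -0.58 and not called (limma, adjusted p = 0.218), and it was called without replicate 2 of cultured endothelium at -0.86. Irs2, Txnip and Ccng2 had interactions of 0.28, 0.21 and 0.45, none of them called. With a pseudocount of 0.1 the Irs2 interaction was 2.54 and called, and its endothelial difference was 3.98.

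Red cell markers were at 846 to 1489.8 FPKM in sum in endothelium in vivo, 37305 to 45043 FPKM in stroma in vivo, and at most 9.12 FPKM in every cultured library, with all 8 listed markers above 1 FPKM in vivo. The leukocyte markers summed to 328 to 441 FPKM in endothelium in vivo and 139 to 195 FPKM in stroma in vivo, against 2.60 to 16.7 FPKM and 20.2 to 40.2 FPKM in culture. Most of the endothelial sum in vivo was 1 gene, Fcer1g, at 255 to 390 FPKM, against 61.8 to 65.3 FPKM in stroma in vivo. The sums therefore do not rank the cell types by leukocyte content. In cultured stroma 9 of the 10 markers were at 0 in all 3 libraries, and the sum was Cd53 alone. The granulocyte markers summed to 269.5 to 399.9 FPKM in endothelium in vivo against 2.50 to 6.58 FPKM in culture, and to 1548 to 3345 FPKM in stroma in vivo against 0 to 6.91 FPKM. Of the 10 stromal markers, all reached 1 FPKM in each library of endothelium in vivo and 2 did so in cultured endothelium, with Col1a1 at 33.1 to 92.3 FPKM against 0.75 to 2.10 FPKM, although the sums of the list overlapped (1613 to 1920 FPKM against 289 to 3079 FPKM). The part of these cells in the in vivo differences of the 8 genes was not tested.

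**Figure D4:**
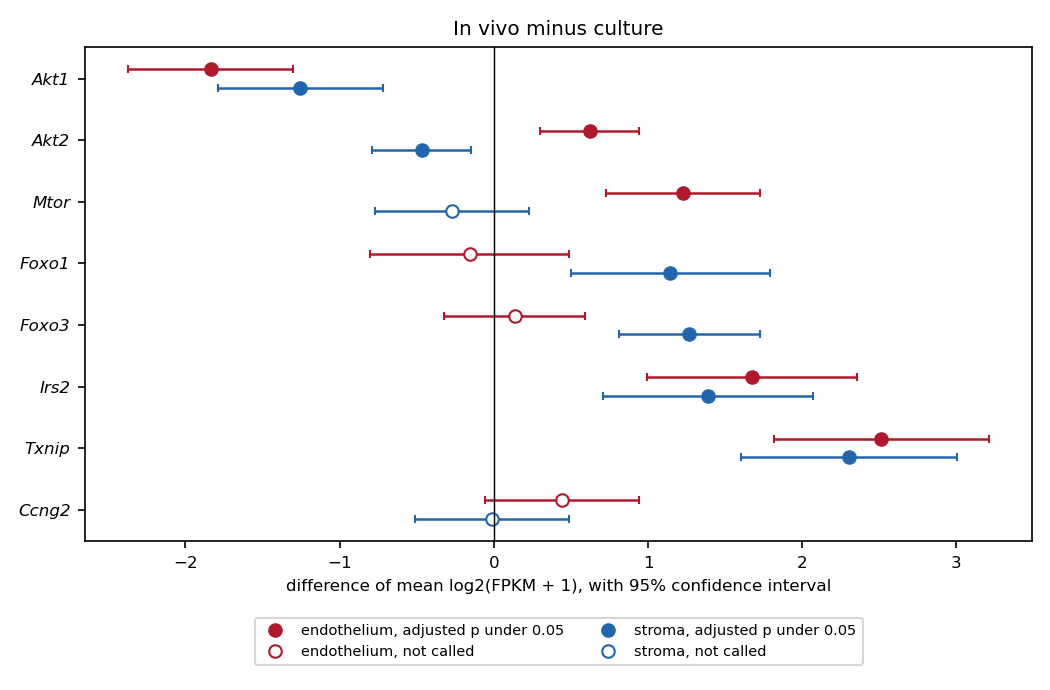
Difference in vivo minus culture for the 8 genes on the log2(FPKM + 1) scale, endothelium red and stroma blue, with 95% confidence intervals; filled points were called. Against the first culture, Akt1 is lower and Txnip and Irs2 are higher in vivo in both cell types. Mtor and Akt2 are higher in vivo in endothelium and not in stroma.

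Between the cell types, Akt1 was higher in endothelium in all 4 settings, by 0.79 ± 0.24 in vivo, 1.37 ± 0.24 in the first culture, 0.80 ± 0.05 alone and 1.88 ± 0.05 with HSPC (limma, adjusted p = 0.0193, 0.00136, 7.58e-09 and 2.64e-12). The in vivo call was lost without replicate 3 of endothelium in vivo (0.75) or replicate 1 or 2 of stroma in vivo (0.78 and 0.73), and under quantile normalization (0.59). Akt2 was lower in endothelium in all 4, at -1.24 in vivo, -2.32 in the first culture, -2.48 alone and -2.64 with HSPC, with limma adjusted p of at most 4.65e-05. Irs2 was lower in all 4 as well, at -3.91, -4.19, -2.85 and -2.64 in the same order (-6.86 in culture with a pseudocount of 0.1). Foxo1 was called higher in endothelium in culture (2.28), alone (1.55) and in vivo (0.98), and was not called with HSPC (0.14, interval -0.0011 to 0.27). In vivo, its call was lost without replicate 2 of stroma in vivo (0.88, limma adjusted p = 0.0631). Foxo3 was called lower in endothelium alone (-0.70), with HSPC (-0.90) and in vivo (-1.66), but not in culture (-0.52, limma adjusted p = 0.0684), where it was called without replicate 1 of cultured stroma (-0.76).

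Txnip changed sides. It was higher in endothelium in culture, by 1.97 ± 0.31, and in vivo, by 2.175 ± 0.31 (limma, adjusted p = 7.62e-04 and 2.11e-04). It was lower in endothelium alone, at -0.86 ± 0.07, and with HSPC, at -1.15 ± 0.07 (limma, adjusted p = 4.13e-07 and 2.38e-08). Whether the cell type difference itself differed between the 2 culture series was not tested. Ccng2 was lower in endothelium alone, at -0.82 ± 0.09, and was called 0.25 ± 0.09 higher with HSPC (limma, adjusted p = 3.07e-06 and 0.0210). That second call was lost under both other scalings and without replicate 1 or 2 of endothelium with HSPC or replicate 1 or 3 of stroma with HSPC (0.17 to 0.24). Ccng2 was not called in culture (-0.55, limma adjusted p = 0.0775; -0.70 and called without replicate 2 of cultured endothelium) or in vivo (-0.10). Mtor was lower in endothelium in culture (-0.94, not called when only these groups were fitted, or without the Xist libraries, which leaves 1 endothelial and 2 stromal libraries), alone (-0.59) and with HSPC (-0.13), the last lost without replicate 2 or 3 of endothelium with HSPC or replicate 1 or 3 of stroma with HSPC (-0.09 to -0.12). In vivo Mtor was not called (0.56, limma adjusted p = 0.0619), although its groups did not overlap, and it was called when only these groups were fitted (limma, adjusted p = 2.40e-04). Of the 8 genes 6 were called in culture, 6 in vivo, 8 alone and 7 with HSPC, where 38.7%, 49.3%, 83.3% and 85.1% of all genes were called.

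The group alone and the first culture group of the same cell type carry the same Akt1 label. In endothelium 1 of the 8 genes was called (0 to 3 with 1 library left out), where 23.2% of all genes were called: Akt2 was 0.44 ± 0.13 higher alone (limma, adjusted p = 0.0337). Leaving out any of the 3 libraries of endothelium alone, or replicate 1 or 3 of cultured endothelium, ended that call (0.35 to 0.49). Akt1 and Foxo1 were not called, at -0.53 and -0.44, and were called without replicate 2 of cultured endothelium, at -0.81 and -0.85. Ccng2, at -0.34, was called without replicate 1 (-0.61). In stroma 3 of 8 were called, where 33.8% of all genes were called. Txnip was 3.36 ± 0.29 higher alone, or 10.3-fold (limma, adjusted p = 1.94e-05). Akt2 was 0.59 ± 0.13 higher and Irs2 0.85 lower (difference -0.85 ± 0.26; limma, adjusted p = 0.00572 and 0.0271). The Irs2 call was lost without replicate 2 or 3 of cultured stroma or any library of stroma alone (-0.70 to -0.90). Foxo3, at 0.38, was called without replicate 3 of cultured stroma (0.58). These comparisons share their culture libraries with those of in vivo and culture.

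Beyond the 8 genes, 82 genes of the pathway were followed in 10 lists, chosen by role with earlier results of these data known. Among the receptors and adaptors, Insr (the insulin receptor) held 38.5, 50.3 and 47.6 FPKM in cultured endothelium and 285, 459 and 492 FPKM in endothelium in vivo, higher by 3.12 ± 0.22 (limma, adjusted p = 1.86e-06). Igf1r (the IGF1 receptor) rose in endothelium in vivo from 13.2, 7.56 and 9.72 FPKM to 58.7, 61.5 and 61.2 FPKM, and fell in stroma from 83.4, 66.7 and 61.8 FPKM to 45.1, 35.4 and 35.3 FPKM. Of the 8 receptor and adaptor genes, Irs2 included, 5 rose and 1 fell in endothelium in vivo, and 5 rose and 2 fell in stroma, with median differences of 1.18 and 1.04 against -0.09 and -0.15 for all genes. Across all genes tested, 23.6% rose and 29.8% fell in endothelium, and 24% rose and 31.4% fell in stroma. Inpp5d, a lipid phosphatase best known from blood cells, was at 66.7 to 216.7 FPKM in every endothelial library and at most 11.7 FPKM in stroma. Pik3r3, a regulatory subunit of PI3 kinase, was at 635 to 889 FPKM in cultured endothelium and 83.0 to 85.2 FPKM in endothelium in vivo.

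Of the genes that sense amino acids and stress for mTOR complex 1 (Rag, Ragulator, folliculin, GATOR and sestrin genes), 0 of 15 rose and 9 fell in endothelium in vivo (limma; 0 rose at an unadjusted p under 0.05 either), and 1 rose and 10 fell in stroma, with medians of -0.57 and -0.67. Across all genes 23.6% rose and 29.8% fell in endothelium and 24% rose and 31.4% fell in stroma, with medians of -0.09 and -0.15. These counts are of values as deposited. Trimmed-mean scaling moved the median of all genes up by 0.087 in endothelium and 0.20 in stroma. Sesn3 fell by 2.55 ± 0.34 in endothelium and 1.19 ± 0.34 in stroma, and Lamtor1, a Ragulator subunit, by 0.57 ± 0.12 and 1.70 ± 0.12 (limma, adjusted p = 1.60e-04, 0.0132, 0.00293 and 1.49e-06). Sesn1 was the gene that rose in stroma, by 1.05. Tsc1 and Tsc2, which hold mTOR complex 1 in check, fell with HSPC in both cell types: Tsc1 by 0.15 and 0.11 and Tsc2 by 0.18 and 0.39 in endothelium and stroma (limma, adjusted p = 0.00769, 0.0314, 0.00845 and 2.35e-05). The stromal call of Tsc1 was lost under trimmed-mean scaling and quantile normalization (-0.077 under each, limma adjusted p = 0.114 and 0.0816). Against culture, Tsc2 was 0.74 higher in endothelium in vivo (limma, adjusted p = 0.0132), and 0.92 and 0.80 under these scalings, called in each. In stroma in vivo Tsc2 was not called (0.20). Tsc1 was not called in endothelium in vivo (0.25). In stroma it was called lower (-0.48, limma adjusted p = 0.0499), but not under trimmed-mean scaling (-0.23). Eif4ebp1, the translation brake that mTOR phosphorylates, rose with HSPC in endothelium from 129, 148 and 136 FPKM to 317, 344 and 295 FPKM.

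FoxO targets other than Irs2, Txnip and Ccng2 were more often higher than lower in vivo. In endothelium 9 of the 22 tested rose and 3 fell, and in stroma 13 rose and 4 fell, with medians of 0.57 and 0.66. Across all genes 23.6% rose and 29.8% fell in endothelium, and 24% rose and 31.4% fell in stroma. Pdk4, a brake on glucose oxidation, stood at 0, 0.66 and 0.52 FPKM in cultured endothelium and at 26.9, 25.9 and 33.3 FPKM in vivo, and Tnfsf10 (TRAIL) at 2.06, 14.7 and 3.85 FPKM against 249, 256 and 252 FPKM. Klf2, a flow-induced transcription factor, rose in stroma from 15.3, 42.1 and 36.3 FPKM to 817, 904 and 521 FPKM. Cdkn1a, which encodes the cell cycle inhibitor p21, was lower in stroma in vivo, at 118 to 173 FPKM against 553 to 752 FPKM in culture, as were Sesn3, Trp53inp1 and Gabarapl1. The fallen targets of endothelium were Sesn3, Bbc3 and Trp53inp1. Under trimmed-mean scaling and quantile normalization, the full target list, members included, kept more rises than falls in both cell types. Under trimmed-mean scaling this was also the direction of all genes, where 53.9% of calls in endothelium and 56.5% in stroma were rises. Under quantile normalization these shares were 43.7% and 41.4%.

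**Figure D5:**
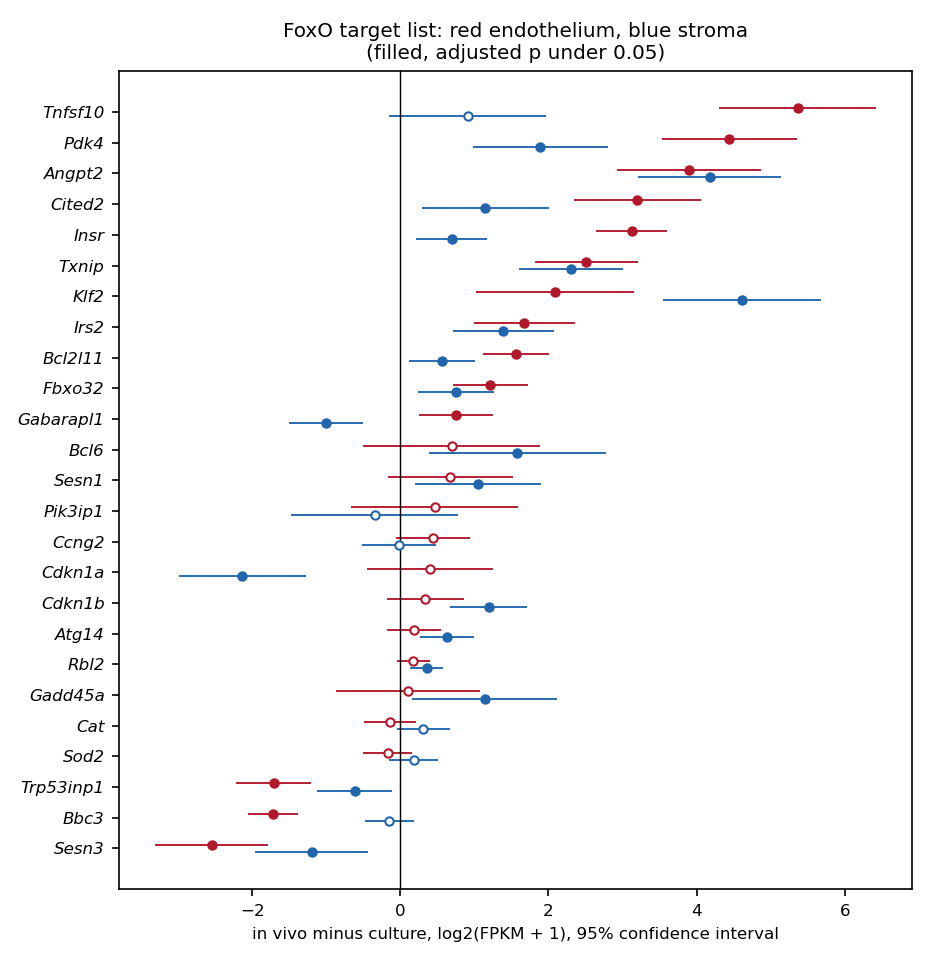
In vivo minus culture difference of the 25 tested FoxO target genes, Irs2, Txnip and Ccng2 included, on the log2(FPKM + 1) scale with 95% confidence intervals, endothelium red and stroma blue; filled points were called. In endothelium 11 are called higher and 3 lower, in stroma 15 higher and 4 lower.

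With HSPC the targets outside the 8 genes split: 7 rose and 4 fell of 21 tested in endothelium, and 8 rose and 6 fell in stroma, with medians of 0.01 and 0.05 against 0.02 and -0.04 for all genes. Across all genes 28.3% rose and 20.3% fell in endothelium, and 25.6% rose and 35.4% fell in stroma. Cdkn1a rose in endothelium from 769.9, 849.5 and 822 FPKM to 1566, 1618 and 1493 FPKM and in stroma from 176, 174 and 174 FPKM to 868, 1211 and 971 FPKM. Cdkn1b (p27) rose by 0.96 and 0.30 in the same order (limma, adjusted p = 1.73e-06 and 0.00575). Pik3ip1, an inhibitor of PI3 kinase, fell by 1.02 in endothelium and 0.59 in stroma (limma, adjusted p = 5.92e-08 and 2.99e-06), and Klf2 rose in stroma by 2.50 and was not called in endothelium (-0.06). Over all 82 pathway genes, 23 rose and 18 fell of 79 tested in endothelium and 26 rose and 34 fell in stroma. Under trimmed-mean scaling the endothelial counts were 18 and 20 and under quantile normalization 18 and 22, so that falls then outnumbered rises. Over all genes, the share of endothelial calls that were rises also went down, from 58.2% to 49.9% and 45.4% in the same order.

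The genes whose log2 levels followed each member most closely over the 24 libraries, were sought among 11809 genes. For Akt2 they were Plxna3, Ctf1 and Edil3 (Pearson's r = 0.991, 0.980 and 0.980), and for Irs2 they were Islr, Cthrc1 and Fap, a protease of fibroblasts (r = 0.980, 0.979 and 0.978). For Foxo1 they were Egfl8, Gja4 (a connexin of arterial endothelium) and Epha4 (r = 0.9395, 0.927 and 0.9025), and for Foxo3 Scara5, Tctn1 and Efs (r = 0.926, 0.919 and 0.912). Akt1 was followed by Rbm28, Zfp738 and Hoxd3 (r = 0.9625, 0.962 and 0.950), and Mtor by Mast2, Cyba and Cblb (r = 0.924, 0.923 and 0.917). Txnip was nearest to Siah1a, Arl5b and Slc16a9 (r = 0.924, 0.919 and 0.906). Ccng2 was nearest to Grhpr, Slc37a4 and Hilpda (r = 0.907, 0.889 and 0.861), the weakest of these likenesses. The 24 points share cell type, setting and library, and are no independent samples.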

How the data were processed

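PolyA RNA of C57BL/6J mice was measured in 24 libraries, extracted with Trizol and prepared as paired-end TruSeq libraries, per the labels' protocols. The authors deposited FPKM values per gene symbol, made with TopHat and Cufflinks on mm9, per the submitters' processing notes; versions are not given in the sources used here. Library totals differ and are high for plain FPKM, so a further scaling is possible. Without counts, the depth is unknown, and error is the spread between libraries.

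The 8 genes, the pathway and marker lists and the tests were chosen with earlier results of these data known. From the deposited FPKM, log2(FPKM + 1) was computed. Linear models with a mean-variance trend were fitted with limma 3.58.1 (R 4.3.3) to 3 sets of 12 libraries: the first culture with in vivo, the co-culture series, and the first culture with the groups kept alone. A gene was tested where 3 or more libraries of the set reached 1 FPKM, and p-values were adjusted over all of them by Benjamini-Hochberg. This gave 12 comparisons, 2 of them interactions. The fits were tested on simulated data.

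All 8 genes are named in each comparison. Of the 90 pathway genes, 82 lie outside them. Named from these by rule were up to 4 called genes per comparison with the largest change, averaging 5 FPKM or more, and Foxo4, Tsc1 and Tsc2; some genes the rule takes are not reported here. Other list genes were named after their values were seen: Insr, Igf1r, Lamtor1, Cdkn1b, Pik3ip1, and the genes that complete a count. Closest patterns were sought above the same level. Promoter letters came from RefSeq on GRCm38.p6. Alternatives were a pseudocount of 0.1, no filter on low values, quantile normalization, trimmed-mean scaling (0.3 of ratios and 0.05 of levels trimmed at each end), all 8 groups or only the compared groups in a fit, group-wise weights, a replicate block, fits without the cultured libraries with Xist above 100 FPKM, and each library left out in turn. Python 3.11.15 with matplotlib 3.10.9 drew the figures.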

Additional observations from a re-analysis of the deposited data

Results flagged for a closer look

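For 9 results, the change of a gene differed between endothelium and stroma by a test of the difference itself (limma interaction, given as endothelium minus stroma on the log2 scale). Under HSPC the difference was 1.08 for Akt1, which rose in 3 of 3 endothelial libraries and fell in 3 of 3 stromal libraries relative to the range alone. It was -1.41 for Foxo1, which did the reverse. It was 1.07 for Ccng2, which rose in both cell types and more in endothelium, and 0.46 for Mtor. For Txnip it was -0.30, as Txnip fell in both cell types. Between in vivo and culture the difference was 1.09 for Akt2, 1.498 for Mtor, -1.30 for Foxo1 and -1.13 for Foxo3. Of these, the values of Foxo1 in vivo and of Txnip with HSPC lost their call without most of the single libraries. The summed leukocyte and granulocyte markers were higher in the HSPC and in vivo groups than in the libraries they are compared with, and their part was not tested.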

How the results depend on the processing

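Of the 96 differences of the 8 genes, 64 were called, and none of these 64 changed sign under any alternative run. Over 1478 values under alternatives, 1337 kept direction and call, 82 lost the call, 37 gained it and 22 changed sign, all among differences that were not called. The cause of these changes was not tested.

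The counts moved as follows. With all 8 groups in the fit, 2276 genes were called for the HSPC interaction (7996 as reported), 5910 for endothelium alone against culture (3267), 1852 for endothelium with HSPC (6813), 3591 for stroma with HSPC (8551) and 7654 for the in vivo interaction (5000). Of the 8 genes, 3 were then called for the HSPC interaction (5), 2 for stroma with HSPC (7) and 2 for endothelium alone against culture (1). For endothelium against stroma in culture, 2801 genes were called with only the compared groups and 3546 with a weight per group (5765). For endothelium alone against culture, 2 of the 8 genes were called with a pseudocount of 0.1, 0 with a weight per group and 3 without the Xist libraries. Fits without the Xist libraries leave cultured endothelium with 1 library, replicate 1, which is assumed to vary like the other groups. With 1 library left out, that comparison ran from 0 to 3 of the 8 genes and from 1593 to 4448 genes, and stroma alone against culture from 3070.0 to 5683 genes (4760).

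The changes of sign, all without a call, were these. For Irs2 with HSPC in endothelium (0.01) they were -0.0051 with a pseudocount of 0.1, -0.33 under quantile normalization, -0.0029 under trimmed-mean scaling and -0.12 to 0.091 with 1 library left out. The Irs2 interactions became -0.21 (HSPC) and -0.087 (in vivo) under quantile normalization. Ccng2 in stroma in vivo (-0.01) became 0.22 under quantile normalization, 0.24 under trimmed-mean scaling and -0.11 to 0.17 with 1 library left out. Ccng2 in stroma alone against culture became 0.01 (0.011) under trimmed-mean scaling and ran from -0.17 to 0.11 with 1 left out. In endothelium alone against culture, Ccng2 became 0.19 without the Xist libraries, which leaves cultured endothelium with 1 library, replicate 1. Foxo1 in endothelium in vivo became 0.031 under trimmed-mean scaling and ran from -0.57 to 0.11. Without the Xist libraries, again against 1 cultured library, Mtor in endothelium alone against culture became -0.0034. With 1 left out of all libraries compared, it ran from -0.11 to 0.23. With 1 library left out, Akt1 in stroma alone against culture ran from -0.073 to 0.14, the Foxo3 HSPC interaction from -0.37 to 0.015 and the Txnip in vivo interaction from -0.088 to 0.62.

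Scaling moved the median of all genes by more than 0.1 in stroma in vivo against culture (0.20) and endothelium alone against culture (0.10), both by trimmed-mean scaling. The share of calls that were higher went from 43.3% to 56.5% in the first and from 37.8% to 53.3% in the second (51.3% by quantile normalization), and for endothelium with HSPC from 58.2% to 45.4% by quantile normalization.

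Groups share replicate numbers, but same-numbered libraries did not deviate together (correlations of -0.16 to 0.12 over the comparisons, no comparison with all above 0.1). With 3 libraries per group, this check cannot tell whether same-numbered libraries share a source. No library set correlated best with its own number throughout. With the replicate block, called genes numbered 5422, 7014, 7692 and 8023 for the cell types in culture and in vivo and for endothelium and stroma in vivo against culture. Foxo3 between the cell types in culture was then called (limma, adjusted p = 0.0439) and the Txnip HSPC interaction was not (limma, adjusted p = 0.0522). No other call of the 8 genes changed under the block.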
